A study of Homo sapiens with 6 samples.

Results

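UHRF1 and the enzymes that write and remove cytosine methylation were followed in TC71, a Ewing sarcoma cell line, after depletion of EHD1. The set held 8 of the 60676 genes in the count table: the hemimethylated-DNA binding factor UHRF1 and its paralog UHRF2, the DNA methyltransferases DNMT1, DNMT3A and DNMT3B, and the methylcytosine dioxygenases TET1, TET2 and TET3. It was chosen by the fall of UHRF1 between the same 6 libraries that are described here, so the UHRF1 difference is given as a description with no test, while the other 7 genes belong to the set by function. All 8 genes passed the filter on low counts. The cells carried a lentiviral, doxycycline-inducible shRNA, either a non-targeting control (shNTC+Dox, 3 libraries) or one against EHD1 (shEHD1+Dox, 3 libraries), and both groups received doxycycline at 0.5 µg/ml for 3 days. EHD1 is an ATPase of the endocytic recycling pathway, and the comparison asks which transcripts differ when it is depleted. Per the study's methods the cells were puromycin-selected polyclonal populations, and no source used here says which of its EHD1 hairpins was sequenced. Because the hairpin and control populations were separate, depletion of EHD1 and any other difference between those populations cannot be told apart.

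After each round of replication the new DNA strand lacks the methyl groups of the old one. UHRF1 recognizes this hemimethylated DNA, ubiquitylates histone H3 and the PCNA-associated factor PCLAF, and thereby recruits DNMT1, which copies the mark. DNMT3A and DNMT3B set methylation on unmethylated DNA, and the TET enzymes oxidize 5-methylcytosine in a reaction that needs 2-oxoglutarate and starts demethylation. UHRF1 is a proliferation-linked gene, transcribed mostly as cells enter and pass through S phase. No methylation was measured in these libraries, so every value below is an mRNA level.

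The promoter windows of UHRF1 and DNMT1, the pair that carries methylation through replication, are shown because they were the windows among the 8 genes that held an E2F-type word, the kind of site found at many S phase genes. The windows come from RefSeq (GRCh38.p14), run 5′ to 3′ on the gene's strand from 250 bases before to 50 bases after a transcript start, and are 300 bases long. Capitals mark the E2F-type word. The words searched on both strands were TTTCGCGC, TTTCCCGC, TTTGGCGC and TTTGCCGC, and they do not overlap each other in these windows.
UHRF1, chr19:4909251-4909550, plus strand: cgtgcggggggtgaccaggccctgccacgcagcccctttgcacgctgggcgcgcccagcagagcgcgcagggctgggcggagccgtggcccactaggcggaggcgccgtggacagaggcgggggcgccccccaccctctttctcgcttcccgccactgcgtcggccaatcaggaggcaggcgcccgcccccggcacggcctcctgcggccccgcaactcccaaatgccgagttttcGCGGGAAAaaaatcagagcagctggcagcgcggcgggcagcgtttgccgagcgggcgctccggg
UHRF1, chr19:4909894-4910193, plus strand: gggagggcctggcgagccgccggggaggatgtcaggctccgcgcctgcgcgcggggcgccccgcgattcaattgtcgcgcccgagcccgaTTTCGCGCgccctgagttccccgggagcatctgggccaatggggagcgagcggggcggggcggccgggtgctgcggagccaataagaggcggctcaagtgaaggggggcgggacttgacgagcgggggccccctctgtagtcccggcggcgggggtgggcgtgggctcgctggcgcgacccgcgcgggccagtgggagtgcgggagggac
DNMT1, chr19:10194904-10195203, minus strand: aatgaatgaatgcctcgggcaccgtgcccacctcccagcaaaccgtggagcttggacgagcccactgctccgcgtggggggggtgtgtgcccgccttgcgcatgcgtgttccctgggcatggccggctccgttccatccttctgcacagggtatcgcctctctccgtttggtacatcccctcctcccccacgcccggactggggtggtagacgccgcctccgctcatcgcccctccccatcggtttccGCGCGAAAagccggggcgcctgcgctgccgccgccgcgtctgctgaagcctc
The first UHRF1 window held the word on the opposite strand, starting 14 bases before the transcript start. The second held TTTCGCGC 160 bases before its start, and the third UHRF1 window, which overlaps the second, held none. In DNMT1 the word lay across the transcript start, on the opposite strand. Such a word occurred in 3.31% of 35116 windows genome-wide and in 3.99% of 27305 genes. UHRF2, DNMT3A, DNMT3B and the TET genes had none in the windows searched. The 36, 40 and 46 CpG dinucleotides of the UHRF1 windows and the 30 of the DNMT1 window lay above the genome-wide upper quartile of 28, whereas the single DNMT3B window had 3, below the lower quartile of 4. The DNMT3B window began at base 32779602, inside a gene annotated from base 32762385, so its outermost annotated start was not searched. The windows of UHRF1 and DNMT1 likewise lay inside the annotated bounds of those genes. The TET1 windows had 6 to 11. Richness in CpG was not particular to UHRF1 and DNMT1, since the TET3 windows had 45 and 33, the TET2 windows 13 and 35, the DNMT3A windows 18 to 46 and the UHRF2 window 26. A match is a description of the letters and not evidence of binding.

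The libraries held 22711235 to 30582187 counted reads. EHD1 itself (ENSG00000110047) was at 27.1, 28.0 and 26.4 CPM (reads of the gene scaled to library size, with TMM factors) in shNTC+Dox, against 7.55, 7.15 and 9.37 CPM in shEHD1+Dox, which left 29.6% of the control level (log2 fold change -1.76, SE 0.12, adjusted p = 0.000135, edgeR quasi-likelihood test). shNTC+Dox library 3 stood apart from the other libraries of its group on the second principal component, at -38.7 against 32.8 and 29.1, and it also had the highest mean over 25 S phase genes, 6.92 log2 CPM against 6.48 and 6.51. shEHD1+Dox library 2 also stood apart in its group, at -24.2 against 2.09 and -1.01 on that component, with an S phase mean of 6.36 against 5.97 and 6.06 log2 CPM. These libraries also held the fewest counted reads, 22711235 in shNTC+Dox library 3 and 24150135 in shEHD1+Dox library 2. The part of depth in their position was not tested. Of 8 Ewing sarcoma markers 7 passed the filter, and their summed level was 1181 to 1270 CPM in shNTC+Dox, against 1242 to 1369 CPM in shEHD1+Dox. Within that sum STEAP1 fell to 74.1% of control (adjusted p = 0.00443) and CD99 rose to 126% (adjusted p = 0.0293), and the other 5 did not pass. CCK, the eighth, had 5 to 12 counts in shNTC+Dox and 0 in every shEHD1+Dox library. Over 6 markers of other cell types the sum was 15.9 to 25.6 CPM and 22.1 to 25.1 CPM, nearly all of it COL1A1 and LUM, with PTPRC at 11 counts or fewer, EPCAM at 5 or fewer, and PECAM1 and CDH5 at 3 or fewer. In a bulk culture, a lower share of cells in S phase and less RNA per cell cannot be told apart.

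UHRF1 (ENSG00000276043, chromosome 19, 4903080 to 4962154, plus strand, hg38) was sequenced to 2699, 2626 and 3516 counts in shNTC+Dox, against 1216, 1812 and 1594 counts in shEHD1+Dox. Those were 103, 94.8 and 157 CPM against 42.7, 74.1 and 51.5 CPM. Every shEHD1+Dox library was below every shNTC+Dox library, and the spread within each group was wide, with shNTC+Dox library 3 the highest and shEHD1+Dox library 2 the nearest to the control range, the same libraries that stood apart and had the higher S phase means. The part of that difference between libraries in the UHRF1 values was not tested. The means were 118 ± 34.1 CPM and 56.1 ± 16.2 CPM (SD, n = 3 each), a log2 fold change of -1.08 (SE 0.28) or 47.4% of the control level. That placed UHRF1 just past the 2-fold line, and 2.75% of the 16785 genes tested had a change as low or lower. Without shNTC+Dox library 3 the change was -0.82, inside the 2-fold line, and without shEHD1+Dox library 2 it was -1.33.

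Of the 7 other genes, 3 fell (UHRF2, DNMT3A and TET3), 1 rose (TET1) and 3 did not pass the test (DNMT1, DNMT3B and TET2) at an adjusted p under 0.05. Across all genes tested, 8.75% passed as lower and 8.59% as higher, 17.3% in all. None of the 7 reached a 2-fold change at any p by edgeR or DESeq2, while 2.82% of all genes passed with one by edgeR, and the 7 changes ran from -0.43 to 0.43 on the log2 scale. Among these 7 the groups did not overlap for 5, with 3 lower and 2 higher in shEHD1+Dox, beside 39.3% of all genes tested. The count that passed among the 7 was 1 without shEHD1+Dox library 1 or 3 and 2 without library 2.

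**Figure D1:**
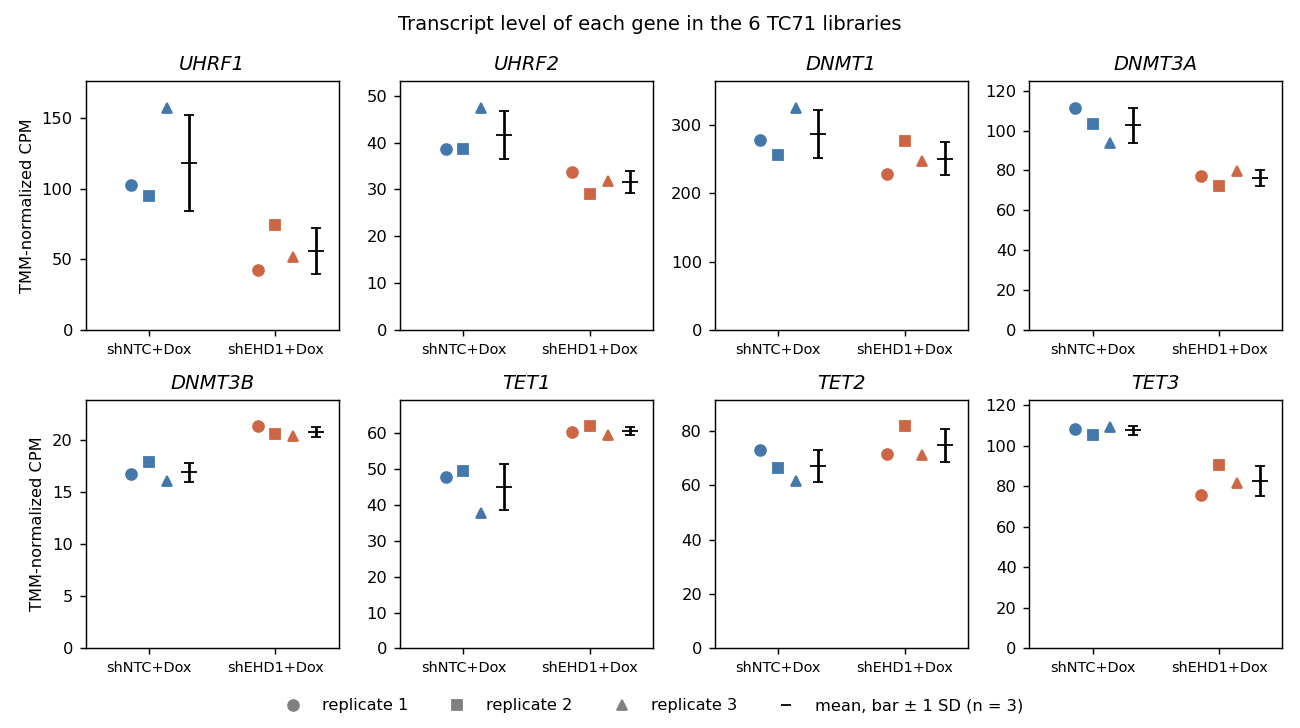
Normalized expression (CPM, linear axis from 0) of the 8 genes in the 3 shNTC+Dox and 3 shEHD1+Dox libraries; points are libraries, and the dash with its bar is the mean ± SD (n = 3). The groups do not overlap for UHRF1, UHRF2, DNMT3A and TET3, which are lower in shEHD1+Dox, or for DNMT3B and TET1, which are higher, and they overlap for DNMT1 and TET2.

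UHRF2 (ENSG00000147854, chromosome 9, 6413151 to 6507054), the paralog that also binds modified DNA but does not take over the maintenance role of UHRF1, was at 38.6, 38.6 and 47.5 CPM in shNTC+Dox, against 33.8, 29.1 and 31.8 CPM in shEHD1+Dox. The groups did not overlap, and UHRF2 fell to 76.0% of control (log2 fold change -0.40, SE 0.10, adjusted p = 0.0320). Leaving out any 1 shEHD1+Dox library ended the call (adjusted p = 0.0635, 0.0988 and 0.0974 without library 1, 2 and 3).

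DNMT1 (ENSG00000130816, chromosome 19, 10133342 to 10231286, minus strand), the maintenance methyltransferase, gave 277, 256 and 325 CPM in shNTC+Dox, against 228, 276 and 248 CPM in shEHD1+Dox. The ranges overlapped, since shEHD1+Dox library 2 lay above shNTC+Dox library 2. The log2 fold change of -0.19 (SE 0.10) did not pass (adjusted p = 0.242), and it was -0.09 without shNTC+Dox library 3. DNMT1 mRNA per UHRF1 mRNA was 2.49 ± 0.37 in shNTC+Dox against 4.63 ± 0.83 in shEHD1+Dox (SD, n = 3), with a lowest shEHD1+Dox value of 3.72. That ratio of CPM contains UHRF1 and is given without a test.

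DNMT3A (ENSG00000119772, chromosome 2, 25227855 to 25342590, minus strand), a de novo methyltransferase, was at 111, 103 and 93.7 CPM in shNTC+Dox, against 77.3, 71.9 and 79.9 CPM in shEHD1+Dox. It fell to 74.4% of control with tight groups (103 ± 8.78 and 76.4 ± 4.06 CPM, log2 fold change -0.43, SE 0.08, adjusted p = 0.00920). It alone of the 7 genes kept its call whichever 1 of the 6 libraries was left out, with a highest adjusted p of 0.0431.

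DNMT3B (ENSG00000088305, chromosome 20, 32762385 to 32809359), the other de novo enzyme, was higher in every shEHD1+Dox library than in any control library, at 16.8, 17.9 and 16.1 CPM in shNTC+Dox, against 21.3, 20.6 and 20.4 CPM in shEHD1+Dox. The log2 fold change of 0.30 (SE 0.09) nevertheless missed the threshold (adjusted p = 0.0577), while DESeq2 placed it just inside at 0.0482. The ratio of DNMT3A to DNMT3B CPM was 6.64, 5.77 and 5.83 in shNTC+Dox, against 3.63, 3.50 and 3.91 in shEHD1+Dox. The 3 ratios of each group did not overlap (6.08 ± 0.49 and 3.68 ± 0.21, n = 3). That follows from DNMT3A being lower and DNMT3B higher in every shEHD1+Dox library, and is no separate result. An exact two-sided permutation test of 3 against 3 libraries could then only give its smallest p, 0.1. That was 0.12 after Benjamini-Hochberg adjustment over 6 ratios and sums tested. The summed CPM of the 3 methyltransferases, not corrected for length, was 406 ± 28.9 in shNTC+Dox and 348 ± 20.6 in shEHD1+Dox (exact permutation p = 0.1, adjusted 0.12, n = 3). DNMT1 was the largest part, with means of 286 and 251 CPM, and its groups overlapped, while DNMT3B was higher in shEHD1+Dox.

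Of the dioxygenases, TET1 rose, TET3 fell and TET2 did not pass. TET1 (ENSG00000138336, chromosome 10, 68560337 to 68694487), whose product has a CXXC domain that binds unmethylated CpG, was at 47.8, 49.3 and 37.7 CPM in shNTC+Dox, against 60.3, 61.9 and 59.5 CPM in shEHD1+Dox. It rose to 135% of control (log2 fold change 0.43, SE 0.10, adjusted p = 0.0228), and shNTC+Dox library 3 was the lowest of the 6. The call was lost without any 1 of the shEHD1+Dox libraries (adjusted p = 0.0763, 0.0704 and 0.0684 without library 1, 2 and 3). TET3 (ENSG00000187605, chromosome 2, 73984910 to 74108176), the form best known from the zygote and from neural tissue, was at 109, 105 and 109 CPM in shNTC+Dox, against 76.0, 90.6 and 81.7 CPM in shEHD1+Dox. It fell to 76.9% of control (log2 fold change -0.38, SE 0.08, adjusted p = 0.0121), a call lost without shEHD1+Dox library 1 (0.0583) or 3 (0.0571). Of its merged exon bases 3.01% also belong to a long non-coding RNA gene, ENSG00000235499, and adding the reads of overlapping genes left all 4 calls among the 7 genes in place.

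TET2 (ENSG00000168769, chromosome 4, 105145875 to 105279816), the form that lacks a CXXC domain and is best known from blood, was at 73.1, 66.5 and 61.6 CPM in shNTC+Dox, against 71.4, 81.7 and 71.1 CPM in shEHD1+Dox. The groups overlapped and the log2 fold change of 0.16 (SE 0.09) did not pass (adjusted p = 0.266). The ratio of TET1 to TET3 CPM was 0.441, 0.469 and 0.346 in shNTC+Dox, against 0.794, 0.684 and 0.728 in shEHD1+Dox, with no overlap (0.418 ± 0.064 and 0.735 ± 0.056, exact permutation p = 0.1, adjusted 0.12). That p was likewise fixed, since TET1 was higher and TET3 lower in every shEHD1+Dox library, and the ratio is no separate result. The summed CPM of the 3 TET genes, not corrected for length, overlapped between groups, 220 ± 10.6 against 218 ± 14.2 (exact permutation p = 0.9, n = 3).

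**Figure D2:**
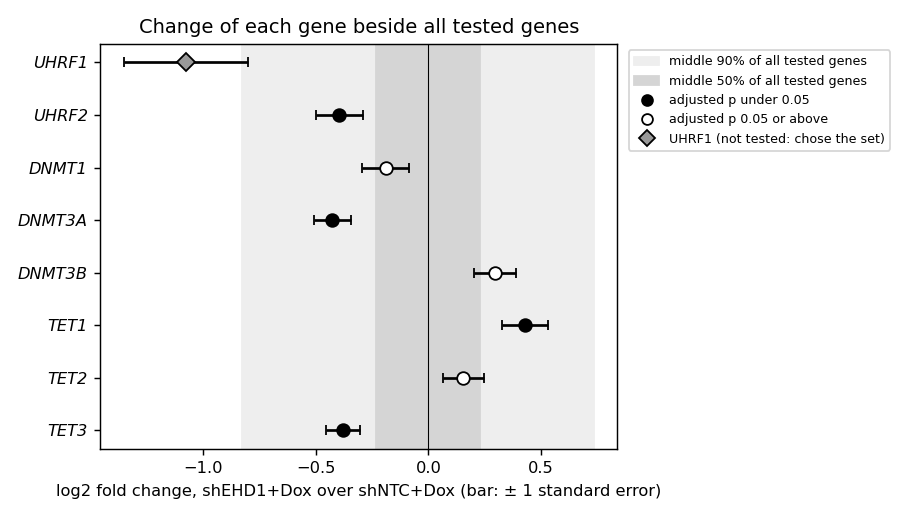
log2 fold change (shEHD1+Dox minus shNTC+Dox) with standard error for the 8 genes, over grey bands for the middle 50% and 90% of all genes tested. UHRF1, at -1.08, is drawn as the gene that chose the set and has no test; UHRF2, DNMT3A and TET3 fell, TET1 rose, and DNMT1, DNMT3B and TET2 did not pass.

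**Figure D3:**
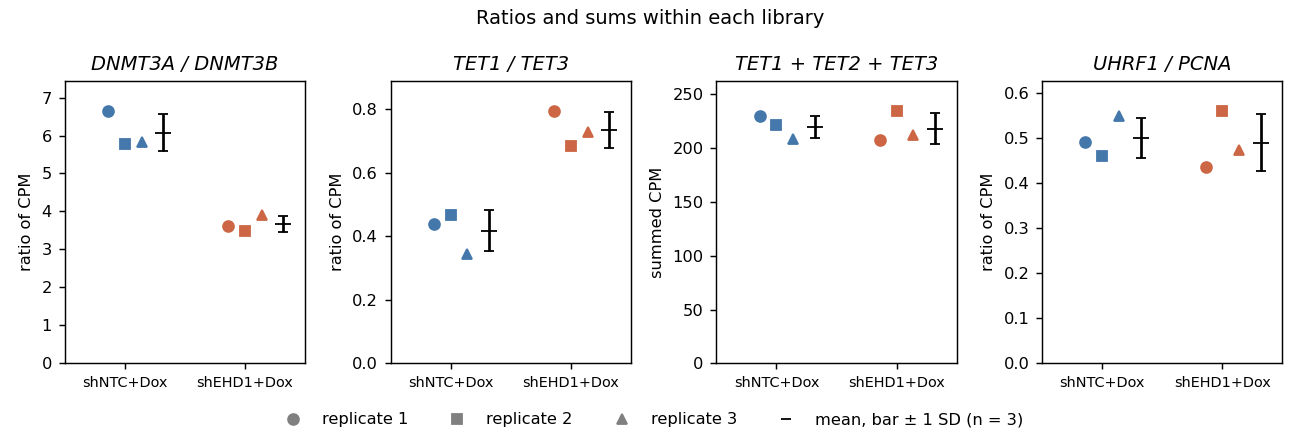
Ratios and a sum of CPM in each of the 6 libraries (points), with mean ± SD (n = 3) beside each group, for DNMT3A per DNMT3B, TET1 per TET3, the TET sum and UHRF1 per PCNA. DNMT3A per DNMT3B is lower and TET1 per TET3 higher in all 3 shEHD1+Dox libraries than in any shNTC+Dox library, whereas the TET sum and UHRF1 per PCNA overlap. Both separations follow from the single genes, whose groups do not overlap and differ in opposite directions.

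Levels were compared between genes per kilobase of merged exon. In shNTC+Dox UHRF1 came first at 23.0 ± 6.63 CPM per kb and DNMT1 next at 18.6 ± 2.30, and these neighbours overlapped. TET3 (8.32 ± 0.16) and DNMT3A (7.45 ± 0.64) followed without overlap, then TET1 (4.68 ± 0.66), UHRF2 (4.19 ± 0.51) and TET2 (4.07 ± 0.35), whose neighbours overlapped, and DNMT3B was lowest at 2.46 ± 0.13. In shEHD1+Dox DNMT1 came first at 16.3 ± 1.55 CPM per kb, above UHRF1 at 10.9 ± 3.14 without overlap, and TET1 (6.30 ± 0.13) overlapped TET3 (6.39 ± 0.57) and lay above DNMT3A (5.54 ± 0.29). DNMT3B (3.02 ± 0.07) overlapped UHRF2 (3.18 ± 0.24) at the bottom. The order between genes depended on the length used. Divided by the length of the canonical transcript instead, a choice added after the data were seen, DNMT1 was first in shNTC+Dox at 54.2 and UHRF1 next at 30.3 CPM per kb, UHRF2 followed at 11.6, and 2 of the 8 genes kept their rank.

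The genes whose profile over the 6 libraries lay nearest to that of UHRF1 were E2F2, RNPS1P1, DNAJA1, ADM5 and CCNE2, out of 13168 genes with a mean of at least 1 CPM. Nearness was the root mean square difference of centred log2 CPM. It was 0.0671 for E2F2, a transcription factor of the G1 to S transition, which ran at 53.7, 51.7 and 78.5 CPM in shNTC+Dox, against 24.0, 36.5 and 26.4 CPM in shEHD1+Dox. DNAJA1, an HSP40 co-chaperone, was at 0.114, and CCNE2, the cyclin that acts with CDK2 at S phase entry, at 0.125. RNPS1P1 is a pseudogene whose reads may come from its parent gene, and it and ADM5 lay near 2 CPM. All of these were highest in shNTC+Dox library 3 and, within shEHD1+Dox, in library 2, as UHRF1 was. That follows from their choice by nearness over the same libraries and is no separate result. Such likeness over 6 libraries of 2 groups was not limited to these 5, and 428 of the 13168 genes had a Pearson r above 0.95 with UHRF1. Ranked by Pearson r in place of distance, 1 of these 5 genes, CCNE2, stayed among the nearest 5.

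**Figure D4:**
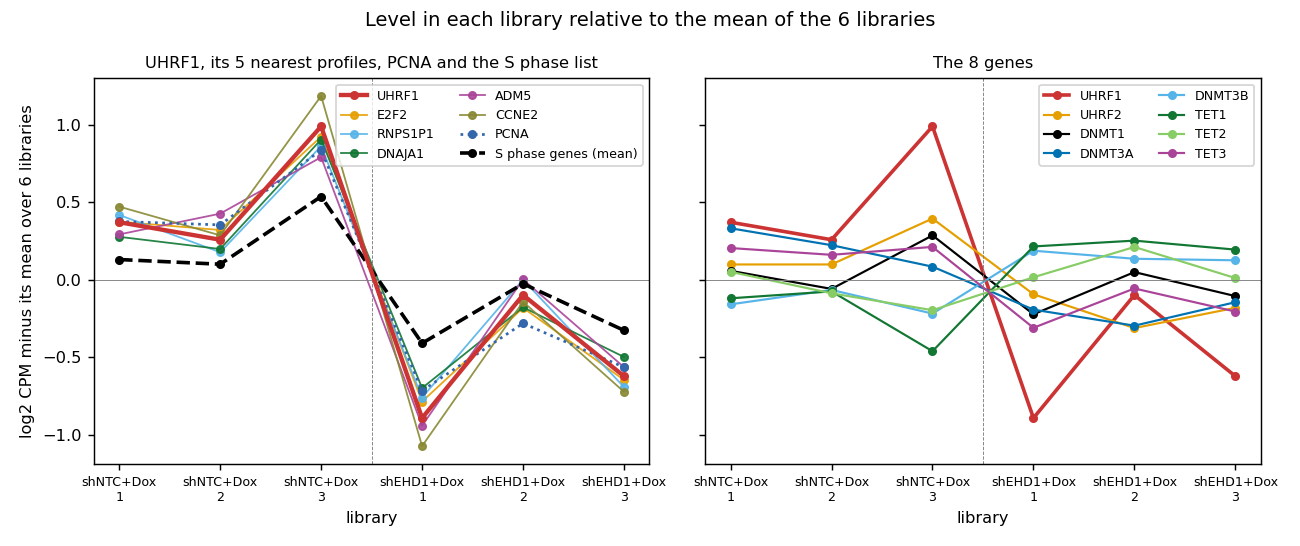
Centred log2 CPM across the 6 libraries, on the left for UHRF1, its 5 nearest genes, PCNA and the mean of the S phase genes, and on the right for the 8 genes of the set. The left-hand lines are high in shNTC+Dox library 3 and, within shEHD1+Dox, highest in library 2, while DNMT3B and TET1 lie above 0 in all 3 shEHD1+Dox libraries. The 5 nearest genes were chosen for their likeness to UHRF1 over these libraries.

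Of 25 S phase genes, such as the MCM and GINS helicase subunits, 14 fell, 0 rose and 11 did not pass. Over all genes tested, 8.75% fell and 8.59% rose. Of the 25 estimates 24 were below 0, with a median log2 fold change of -0.54 beside 0.00080 over all genes tested. The count of risers was also 0 at an unadjusted p under 0.05, where 16% of all genes were higher, and by DESeq2, where 11.3% were. CCNE2 had the largest fall and the only one past 2-fold, from 21.2, 18.7 and 34.9 CPM to 7.23, 13.9 and 9.24 CPM (log2 fold change -1.30, SE 0.31, adjusted p = 0.0307). It lost its call without shNTC+Dox library 1 (0.0540) or shEHD1+Dox library 1 (0.0822) or 3 (0.1002), and with no filter on low counts (0.0680). Of its exon bases, 37.1% are shared with another gene. The number of S phase genes that fell was 3 without shEHD1+Dox library 1, 2 without library 3 and 16 without library 2. The part of S phase content in the UHRF1 difference was not tested. UHRF1 minus the mean of the S phase genes was 0.17, 0.09 and 0.38 log2 units in shNTC+Dox, against -0.55, -0.14 and -0.37 in shEHD1+Dox, with no overlap, whereas UHRF1 per PCNA was 0.500 ± 0.044 against 0.489 ± 0.063 and overlapped. DNMT1 minus the same mean was 1.60, 1.52 and 1.43 against 1.86, 1.75 and 1.90, higher in all 3 shEHD1+Dox libraries (exact permutation p = 0.1, adjusted 0.12). An E2F-type word was found in 12 of the 20 S phase genes with a RefSeq window and in 5 of 12 maintenance partners, beside 3.99% of 27305 genes. In the other lists described below it was in 1 of 3 de novo partners, 2 of 15 methyl donor genes and 1 of 9 methyl-CpG readers. It was in 1 of 10 genes of the 2-oxoglutarate list. The demethylation, unmethylated-CpG and germline lists had it in 0 of 9, 0 of 5 and 0 of 11.

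Partners of UHRF1 and DNMT1 at the replication fork and on chromatin formed a list of 12 genes, of which 11 were tested. Of these, 4 fell, 0 rose and 7 did not pass (median log2 fold change -0.32). Over all genes tested, 8.75% fell and 8.59% rose. The count of risers was 0 also at an unadjusted p under 0.05 (16% of all genes) and by DESeq2 (11.3% of all genes). PCNA, the sliding clamp, was at 209, 206 and 287 CPM in shNTC+Dox, against 98.0, 132 and 109 CPM in shEHD1+Dox (log2 fold change -1.05, SE 0.16, adjusted p = 0.00444). PCLAF, the clamp-associated substrate of UHRF1, fell by 0.73 on the log2 scale (adjusted p = 0.0373), with 29.3% of its exon bases shared with another gene. EHMT2, a histone H3 lysine methyltransferase, fell by 0.61 (adjusted p = 0.00115), and the replicative ligase LIG1 fell by 0.46 (adjusted p = 0.00515). The remodeller HELLS (-0.32, adjusted p = 0.465), its partner CDCA7 (-0.38, adjusted p = 0.132) and the deubiquitylase USP7 (0.07, adjusted p = 0.509) did not pass. DPPA3, an inhibitor of UHRF1 in germ cells, had 0 counts in every library.

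Among the 4 de novo partners the histone methyltransferases NSD1, NSD2 and SETD2 were tested, and 0 passed by edgeR's quasi-likelihood test, 2 were under 0.05 unadjusted (1 in each direction), and 1, lower, passed by DESeq2. DNMT3L, the cofactor of DNMT3A in germ cells, had 0 counts. Without shNTC+Dox library 3 or shEHD1+Dox library 2, 1 passed. Of 5 proteins that bind unmethylated CpG islands through a CXXC domain, 0 passed, 2 were under 0.05 unadjusted (1 in each direction) and 0 passed by DESeq2, and without shNTC+Dox library 3, 2 passed. Over all genes, 17.3% passed by edgeR, and 16.3% were lower and 16% higher at an unadjusted p under 0.05. By DESeq2, 12% passed as lower and 11.3% as higher.

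Of 13 genes of active demethylation and base excision repair 1 fell, 2 rose and 10 did not pass (median log2 fold change 0.10). That is 3 of 13, near the 17.3% of all genes that passed, and so no result about the list. GADD45A, a stress-response gene implicated in repair-coupled demethylation, rose from 9.92, 9.32 and 10.4 CPM to 17.2, 18.1 and 18.4 CPM (log2 fold change 0.86, SE 0.10, adjusted p = 0.00126). LIG3, the ligase of base excision repair, rose by 0.52 on the log2 scale (adjusted p = 0.00437), with 30.5% of its exon bases shared with another gene. OGT, the O-GlcNAc transferase that binds TET proteins, fell from 327, 314 and 270 CPM to 244, 213 and 236 CPM (log2 fold change -0.39, SE 0.09, adjusted p = 0.0185), a call lost without shNTC+Dox library 1 (0.0662) or 2 (0.0567) or shEHD1+Dox library 2 (0.0555) or 3 (0.0628). TDG, the glycosylase that excises oxidized methylcytosine, did not pass (-0.20, adjusted p = 0.123).

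A list of methyl-CpG readers held 10 genes, MBD3, MBD5 and MBD6 among them, and whether each product binds methylated CpG was not tested. Of the 10 genes 1 fell, 1 rose and 8 did not pass (median -0.08). That is 2 of 10, near the 17.3% of all genes, so MBD4 and ZBTB38 are given as single genes. MBD4, a reader that is also a thymine glycosylase, fell from 42.6, 45.2 and 46.3 CPM to 32.5, 34.2 and 35.5 CPM (log2 fold change -0.39, SE 0.07, adjusted p = 0.00877), and was at 0.0502 without shEHD1+Dox library 1. ZBTB38, a zinc finger repressor that binds methylated DNA, rose from 42.2, 45.9 and 39.1 CPM to 55.3, 62.9 and 51.5 CPM (log2 fold change 0.41, SE 0.10, adjusted p = 0.0204). Its call was lost without shNTC+Dox library 1 (0.0620) or shEHD1+Dox library 1 (0.0630) or 2 (0.0591). The count of readers that passed was 0 without shEHD1+Dox library 1, 1 without shNTC+Dox library 1 or shEHD1+Dox library 2, and 3 without shNTC+Dox library 3.

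The methyl donor cycle makes and recycles S-adenosylmethionine, the methyl donor of the DNMT enzymes. Of 18 genes, BHMT and BHMT2 were below the filter and MAT1A is set aside below. Of the other 15, 2 fell, 3 rose and 10 did not pass (median -0.13), where 17.3% of all genes passed. MAT2A, the S-adenosylmethionine synthase of most tissues, fell from 662, 638 and 660 CPM to 340, 380 and 358 CPM (log2 fold change -0.86, SE 0.07, adjusted p = 0.000217). Its regulatory subunit MAT2B rose by 0.42 (adjusted p = 0.0178). The largest rise was that of AHCYL2, an AHCY-like gene, by 0.60 (adjusted p = 0.00100). AHCYL1, also AHCY-like, rose by 0.33 (adjusted p = 0.00773), and CBS fell by 0.27 (adjusted p = 0.0233). AHCY itself did not pass (-0.01, adjusted p = 0.947), and whether the AHCY-like products act in the cycle was not tested. MAT1A, the synthase of adult liver, had 5, 5 and 0 counts in shNTC+Dox, against 49, 33 and 47 counts in shEHD1+Dox. It reached the filter through the shEHD1+Dox libraries alone, so the text gives it as counts, with no fold or test. The plot of fold changes by pathway list marks MAT1A at its edge, and that fold is not interpreted. Of the methyl donor genes 3 passed without shEHD1+Dox library 1 or 3.

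Of 13 genes that make or use 2-oxoglutarate, the TET cosubstrate, or clear its competitors, 2 fell, 0 rose and 11 did not pass, with 11 of the 13 estimates below 0 (median -0.17). The 2 of 13 that passed are near the share over all genes, 17.3%. At an unadjusted p under 0.05, 7 were lower and 1 higher, beside 16.3% and 16% of all genes, and by DESeq2 6 were lower and 0 higher, beside 12% and 11.3%. SDHD, a subunit of succinate dehydrogenase, fell from 122, 118 and 130 CPM to 90.5, 91.8 and 93.2 CPM (log2 fold change -0.42, SE 0.06, adjusted p = 0.00339). IDH2, the mitochondrial isocitrate dehydrogenase, fell by 0.37 (adjusted p = 0.0351). The count of genes that passed was 5 without shNTC+Dox library 3 and 1 without any other single library.

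Germline genes that promoter methylation keeps silent in somatic cells were mostly at or near 0 reads in both groups. Of 13 listed, 10 had 3 counts or fewer in every library. SOHLH2 (10 to 16 counts) and PIWIL2 (789 to 1420 counts) were tested, and 0 passed by edgeR's test, at an unadjusted p under 0.05 or by DESeq2. By edgeR's test 17.3% of all genes passed. SYCP3, with 5 to 18 counts, was below the filter. A count of 0 allows up to 3 reads in a library, counting error only, so induction below that depth was not detectable.

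**Figure D5:**
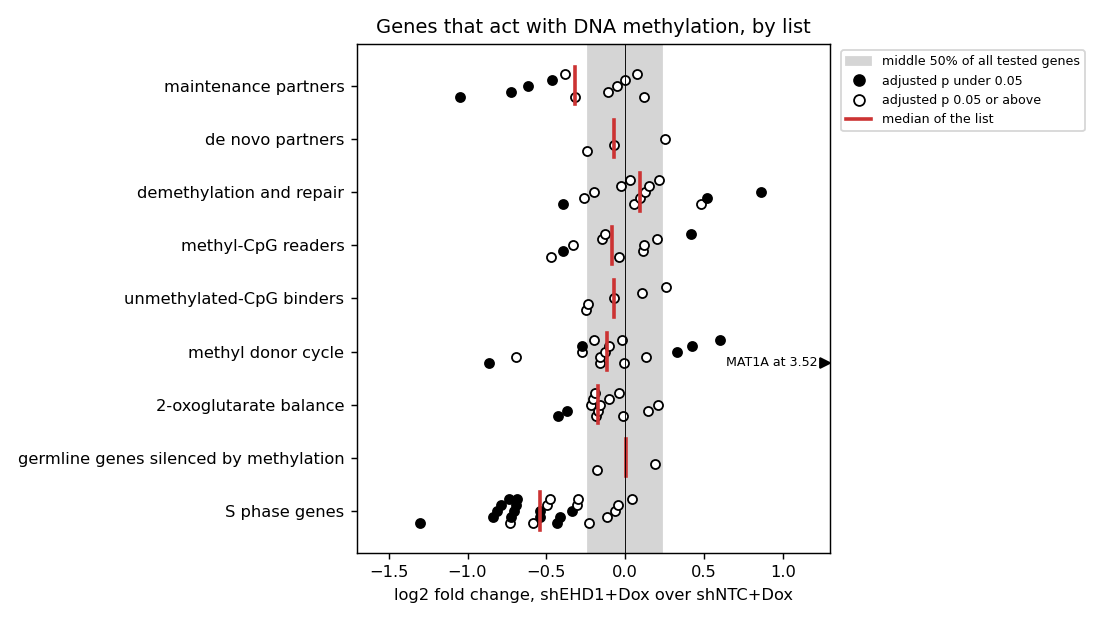
log2 fold change (shEHD1+Dox minus shNTC+Dox) of each tested gene in the 9 pathway lists, filled where the adjusted p is under 0.05, with the list median as a bar, a grey band for the middle 50% of all genes tested, and MAT1A, which is not interpreted, marked at the edge. The S phase and maintenance lists lie mostly below 0, with medians of -0.54 and -0.32, while the other lists have medians between -0.17 and 0.10. The methyl donor median drawn, -0.11, includes MAT1A, whereas the -0.13 in the text leaves it out.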

How the data were processed

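The 6 libraries of TC71 RNA (total RNA, unstranded TruSeq RNA v2 kit, paired-end reads) were analysed, 3 per group. The deposited table holds raw counts per Ensembl gene for hg38. Per the labels the authors used STAR 2.7.3a and DESeq2, while their methods text names hisat2 for alignment and StringTie for quantification; the sources differ, and neither says which tools made the deposited counts. Without strand, reads of overlapping antisense genes cannot be told apart, and reads of paralogs or pseudogenes may be shared.

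Genes that reached 10 counts in 3 or more libraries (16785 of 60676) were fitted with edgeR 4.0.16 in R 4.3.3 (TMM, robust quasi-likelihood, no covariates). P-values were adjusted by Benjamini-Hochberg over all tested genes; the threshold was 0.05, with 2-fold as the study's second criterion. Unless named otherwise, adjusted p-values in the text are from this test, two-sided. CPM values are TMM-scaled, and log2 CPM used a prior count of 2. The biological coefficient of variation was 15.0%. Ratios and sums used an exact two-sided permutation test. Exon lengths came from GENCODE 44 and promoter windows from RefSeq. The fit was tested on counts simulated from its own estimated means and dispersions, which checks the code and not the calls.

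No source says that the libraries of a group were separate cultures, so p-values measure the spread between these libraries. Numbering within a group came from the labels. The 8 genes and all lists were chosen with earlier results of these data known. Named were EHD1, the 8 genes, the called genes of each list past 2-fold, its largest called fall and rise, and the 5 nearest profiles; other list members named with values were chosen after their values were seen. Alternatives were DESeq2 1.42.0, its size factors in edgeR, other filters, leaving out each library, a replicate block, a prior count of 0.5 and reads summed with overlapping genes; canonical transcript length was added after the data were seen.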

Additional observations from a re-analysis of the deposited data

How the results depend on the processing

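UHRF1 stayed between -1.08 and -1.06 on the log2 scale under DESeq2, its size factors, the other filters and the replicate block, and between -1.33 and -0.82 when 1 library was left out. Under DESeq2, 1 de novo partner (0 by edgeR) and 6 genes of the 2-oxoglutarate list (2 by edgeR) passed. The replicate numbers did not pair the libraries, since deviations of same-numbered libraries correlated at -0.0107 on average, against 0.00602 for other numbers. With the replicate number as a block, 1 gene of the 2-oxoglutarate list and 8 S phase genes (14 without it) passed, UHRF2 was at an adjusted p of 0.0551 and CCNE2 at 0.0521, 3 of the 7 other genes of the set passed, and genes under 0.05 fell from 2910 to 1766. Ranking profiles by Pearson r kept 1 of the 5 nearest genes, and canonical transcript length kept 2 of 8 ranks. Adding the reads of overlapping genes changed none of the calls among the 8 genes.

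With 1 library left out, genes past 2-fold ranged from 293 to 452 (473 with all 6), those under 0.05 from 1322 without shEHD1+Dox library 3 to 3616 without shNTC+Dox library 3, and other genes of the set from 1 to 4. The lists ranged from 3 to 4 for maintenance partners, 0 to 1 for de novo partners and 2 to 3 for demethylation and repair. They ranged from 0 to 3 for readers, 0 to 2 for unmethylated-CpG binders and 1 to 5 for 2-oxoglutarate. The range was 0 to 0 for germline genes and 2 to 16 for S phase genes. For the methyl donor cycle it was 3 to 6 with 1 shEHD1+Dox library left out, the fits in which MAT1A was not tested. The causes were not tested. Germline genes are limited by depth.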
